A study of Homo sapiens with 4 samples.

Results

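MEIS, PBX, PKNOX and TGIF proteins are transcription factors of the TALE class of homeobox genes, and their RNA was followed in SK-N-BE(2)C, a long-established line of neuroblastoma cells that carries MYCN amplification. The 9 members considered here, MEIS1, MEIS2, MEIS3, PBX2, PBX3, PBX4, PKNOX1, PKNOX2 and TGIF1, were taken by gene symbol from the 55765 symbols of the count table. All-trans retinoic acid (ATRA) had been given at 10 µM over 144 h in 2 libraries, and the solvent ethanol alone over the same 144 h in the other 2. A single line is the only model here. Nothing in the labels tells separate cultures from repeat libraries, so p-values measure the spread between these libraries, which may be technical.

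TALE stands for a 3-amino-acid loop extension between the first helices of the homeodomain. PBX proteins bind DNA together with HOX proteins, and MEIS and PKNOX proteins join them, carry PBX into the nucleus and steady the complex on DNA. TGIF1 is a repressor that recruits corepressors to SMAD proteins and also binds retinoid X receptor sites. In chick and mouse limb buds, retinoic acid switches on Meis1 and Meis2.

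The family resemblance, and the small differences that let reads be assigned to 1 member, are visible in the homeobox itself. The stretch of 90 bases shown for the 7 members with enough reads to test runs from the codons of the loop extension, in capitals, to the end of a conserved motif in the DNA-reading helix. The sequences are from GENCODE 29 transcripts, 5′ to 3′ on the coding strand.
MEIS1: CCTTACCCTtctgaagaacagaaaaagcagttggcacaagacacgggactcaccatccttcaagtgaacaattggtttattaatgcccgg
MEIS2: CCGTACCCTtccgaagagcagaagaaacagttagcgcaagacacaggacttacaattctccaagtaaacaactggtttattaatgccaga
MEIS3: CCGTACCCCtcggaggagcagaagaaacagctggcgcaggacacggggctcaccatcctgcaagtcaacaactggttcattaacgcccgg
PBX2: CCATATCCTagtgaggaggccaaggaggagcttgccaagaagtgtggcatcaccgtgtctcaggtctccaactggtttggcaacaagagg
PBX3: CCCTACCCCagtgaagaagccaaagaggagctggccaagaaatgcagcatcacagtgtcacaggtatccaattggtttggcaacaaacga
PKNOX1: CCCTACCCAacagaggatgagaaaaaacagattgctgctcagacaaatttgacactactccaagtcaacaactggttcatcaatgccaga
TGIF1: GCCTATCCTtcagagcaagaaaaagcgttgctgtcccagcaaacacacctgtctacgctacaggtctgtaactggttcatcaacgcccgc

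MEIS1 matched MEIS2 at 74 and MEIS3 at 74 of the 90 bases, and PBX2 matched PBX3 at 73. MEIS1 matched PKNOX1 at 58, TGIF1 at 52 and PBX3 at 51. The 7 genes lie on chromosomes 2, 15, 19, 6, 9, 21 and 18, in the order printed. Over whole transcripts the members are mostly distinct. MEIS1 and MEIS2 had 10 stretches of 31 bases in common, of 11106 in MEIS1 and 10961 in MEIS2, and PBX3 and PBX4 shared no such stretch with any other gene of GENCODE 29. PBX2 is the exception: 32.1% of its stretches also occur elsewhere, in the pseudogene PBX2P1 and in AL662884.1, which overlaps 15.1% of its exon bases on the same strand. Its count is uncertain for that reason. MEIS3 shared 8.74% of its stretches, mainly with the pseudogenes MEIS3P2 and MEIS3P1. Antisense transcripts overlapped 4.19% of MEIS1 exon bases and 3.99% of those of MEIS2, and the strand setting of the counting is not given in the sources used here. The antisense and pseudogene symbols themselves held few reads. MEIS1-AS2 had 21 and 10 reads with ATRA and 10 and 6 with ethanol. MEIS3P1 had 33 and 9 reads with ATRA and 9 and 4 with ethanol, and PBX2P1 had at most 4 in any library.

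Depth was 15518828 and 16498355 counts in ATRA libraries 1 and 2, and 12850462 and 19883465 in ethanol libraries 1 and 2. The members together held 6601 and 9912 reads with ATRA, against 3598 and 7167 with ethanol. Libraries differed by title number as well as by treatment. The share of mitochondrial ribosomal RNA was 2.49% in ATRA 1 and 5.96% in ethanol 1, against 0.130% in ATRA 2 and 0.0291% in ethanol 2, so differences within each number are given beside the fitted values. All 9 neuroblastoma and sympathoadrenal markers examined were above 5 CPM (read counts scaled to library size) in every library; the lowest of them stood at 5.76 and 7.30 CPM with ATRA and at 38.8 and 42.7 CPM with ethanol. Of these 9 markers, 2 were lower with ATRA at an adjusted p under 0.05, against 0.153% of all genes. They were CHGA, a secretory granule protein (log2 fold change -3.29 ± 0.35, SE), and GATA3, a sympathoadrenal transcription factor (-2.64 ± 0.30, SE). The adjusted p was 0.0381 for each (edgeR quasi-likelihood). The other markers did not pass and went both ways. MYCN (-0.70) and HAND2 (-0.30) also had both ATRA libraries below both ethanol libraries, and GAP43 (0.99) had both above. The part of these marker differences in the members' results was not tested. The 10 markers of blood, endothelium, epithelium and hepatocytes found in the table summed to 3.39 and 2.81 CPM with ATRA and 3.00 and 1.44 CPM with ethanol, with KRT5 at 0 reads throughout. The retinoid targets CYP26A1 and RARB, an enzyme that clears retinoic acid and a retinoic acid receptor, both rose, as did the other 2 retinoid targets examined, though limma-voom called 1 of the 4.

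Both ATRA libraries held more MEIS1, PBX3, MEIS3 and TGIF1 RNA than both ethanol libraries. MEIS2 hardly differed on average, and PBX4 was scarce in every library. None of the 7 members tested passed the threshold of edgeR's quasi-likelihood test, an adjusted p under 0.05 by Benjamini-Hochberg over the 18900 genes that passed the filter on low counts. That test called 0.698% of all genes, 0.545% higher and 0.153% lower with ATRA, and 0 of the 7 members in either direction. In bulk libraries like these, fewer cells that express a gene and less RNA per cell cannot be told apart. At an unadjusted p under 0.05 there were 3 of 7 (MEIS1, PBX3 and MEIS3), against 15.9% of all genes tested. DESeq2 called 2 members, MEIS1 and PBX3, and 7.3% of all genes, while limma-voom called 0 members and 0.265% of all genes. With the title number as a block, edgeR called 4 members (MEIS1, MEIS3, PBX3 and TGIF1) and 21.7% of all genes. The labels do not say what that number stands for. Both ATRA libraries lay above both ethanol libraries for 4 members, against 23.8% of all genes, and below them for 0 of the 7 tested, against 21.7%; 4 of 7 did not overlap in either direction, against 45.5%. The members' log2 fold changes had a median of 0.80, beside 0.01 over all genes tested. PBX4 and PKNOX2 did not pass the filter and are not in these counts.

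**Figure D1:**
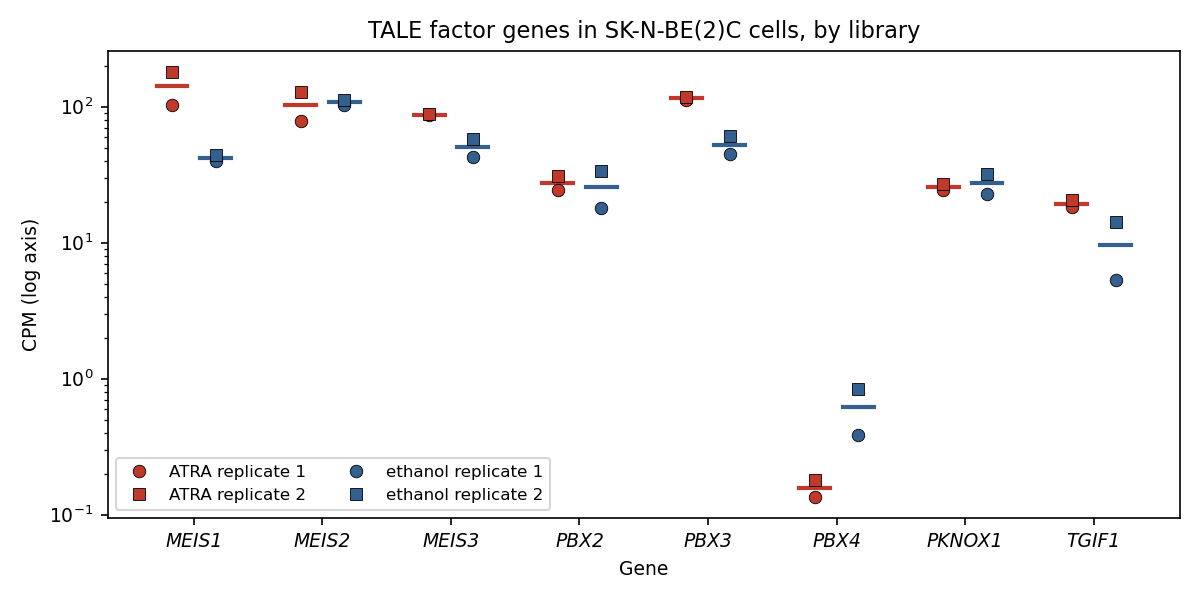
CPM on TMM-scaled library sizes (log axis) of the 8 TALE genes with any reads, with 1 point per library and a bar at the mean of 2 libraries, ATRA in red to the left of ethanol in blue. MEIS1, MEIS3, PBX3 and TGIF1 have both ATRA points above both ethanol points, MEIS2, PBX2 and PKNOX1 overlap, and PBX4 stays under 1 CPM.

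MEIS1, a HOX cofactor and a retinoid-responsive gene of the limb, had the largest fitted log2 fold change of the 7 tested members; without ethanol 2, and within the libraries numbered 1, TGIF1 was larger. MEIS1 had 102 and 180.1 CPM with ATRA, against 39.8 and 43.8 CPM with ethanol. The lower ATRA library was above the higher ethanol library, and the ATRA libraries lay further apart than the ethanol ones. Its means were 141 ± 54.9 CPM with ATRA and 41.8 ± 2.83 CPM with ethanol (SD, n = 2 each), a log2 fold change of 1.76 ± 0.34 (SE) or 3.38-fold, with an adjusted p of 0.0834 (edgeR quasi-likelihood). The difference was 1.36 within the libraries numbered 1 and 2.04 within those numbered 2, so it was larger where mitochondrial ribosomal RNA was scarce; the part of that RNA in the result was not tested. Of all genes tested, 5.19% had a larger log2 fold change. Fits without 1 library leave 1 arm with a single library that is assumed to vary like the other group, and they called between 4.2% and 6.96% of all genes, against 0.698% with all 4 libraries. A pass in them is therefore no added support. In them MEIS1 passed: its adjusted p was 4.92e-05 without ATRA 1, 0.0230 without ATRA 2, 0.0267 without ethanol 1 and 0.00807 without ethanol 2, and it ran from 4.92e-05 to 0.103 over all alternatives (edgeR quasi-likelihood, DESeq2 or limma-voom).

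MEIS2 is a close relative of MEIS1 that neuroblastoma cells are known to express, and it is a substrate of the cereblon ubiquitin ligase. It had 78.8 and 128 CPM with ATRA, against 103 and 113 CPM with ethanol. The ethanol values fell between the ATRA values, so the groups overlapped. The log2 fold change was -0.06 ± 0.30 (SE; adjusted p 0.961, edgeR quasi-likelihood), with -0.39 and 0.18 within numbers 1 and 2. Leaving out ATRA 1 or ethanol 2 turned its sign, to 0.23 and 0.02.

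MEIS3, a cofactor of hindbrain patterning in frog embryos, had 86.2 and 89.0 CPM with ATRA, against 42.5 and 58.2 CPM with ethanol. The ATRA libraries were close together and above both ethanol libraries. The log2 fold change was 0.80 ± 0.26 (SE), with an adjusted p of 0.215 (edgeR quasi-likelihood). Within numbers 1 and 2 the difference was 1.02 and 0.61. Its adjusted p ran from 0.00826 to 0.315 over the alternatives that kept all 4 libraries (edgeR quasi-likelihood, DESeq2 or limma-voom). The lowest came with the title number as a block.

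The balance within the MEIS subfamily can be read without any scaling between libraries, since reads of the genes are compared inside the same library. These ratios were chosen after the values were seen. There were 1.30 and 1.41 MEIS1 reads per MEIS2 read with ATRA, against 0.386 and 0.389 with ethanol. MEIS1 thus outnumbered MEIS2 in both ATRA libraries and was outnumbered in both ethanol libraries. The ratio averaged 1.36 ± 0.0789 with ATRA and 0.387 ± 0.00263 with ethanol (SD, n = 2 each), a 3.50-fold difference. An exact two-sided permutation test gave p = 0.333, the smallest that 2 libraries against 2 can give. MEIS3 reads per MEIS2 read were 1.09 and 0.698 with ATRA, against 0.412 and 0.517 with ethanol, also without overlap (exact permutation p = 0.333). Summed over MEIS1, MEIS2 and MEIS3, the subfamily had 267 and 397 CPM with ATRA and 186 and 215 CPM with ethanol.

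Per kb of exon, MEIS1 made up 28.0% and 36.1% of the MEIS level with ATRA, against 16.9% and 15.5% with ethanol. MEIS2 made up 21.8% and 25.9% with ATRA, against 44.5% and 40.4% with ethanol. MEIS3 held 50.3% and 38.1% with ATRA, against 38.6% and 44.1% with ethanol. The shares of MEIS1 and MEIS2 did not overlap between the groups and those of MEIS3 did. The exon lengths used (10.9, 10.8 and 5.12 kb for MEIS1, MEIS2 and MEIS3) join all annotated transcripts. The sizes of the shares depend on them.

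**Figure D2:**
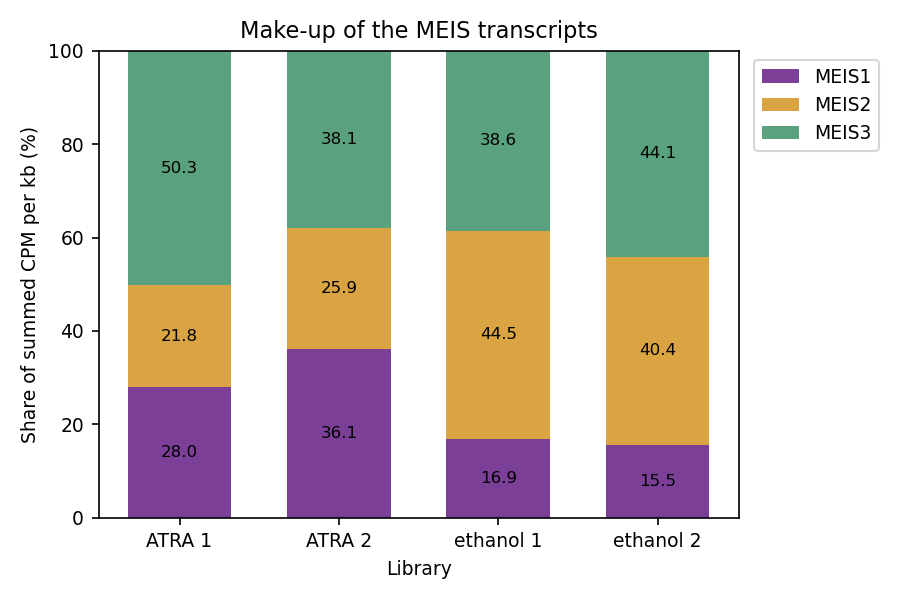
Share (%) of the summed level per kb of exon held by MEIS1, MEIS2 and MEIS3 in each of the 4 libraries, as stacked bars. MEIS1 takes 28.0% and 36.1% in the ATRA libraries and 16.9% and 15.5% in the ethanol libraries, and MEIS2 the larger share of the pair with ethanol.

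PBX3, a HOX cofactor of the central nervous system, had the steadiest difference. It had 113 and 117 CPM with ATRA, against 44.9 and 60.5 CPM with ethanol. Both ATRA libraries stood well clear of the ethanol libraries. The means were 115 ± 3.38 CPM with ATRA and 52.7 ± 11.0 CPM with ethanol (SD, n = 2 each), a log2 fold change of 1.13 ± 0.26 (SE) or 2.18-fold. Its adjusted p was 0.116 by edgeR quasi-likelihood and 0.0206 by DESeq2, within a range of 0.00141 to 0.362 over the alternatives. Within numbers 1 and 2 the difference was 1.33 and 0.96.

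PBX2, a broadly expressed relative of PBX3, had 24.4 and 30.9 CPM with ATRA, against 17.9 and 33.4 CPM with ethanol. The groups overlapped (log2 fold change 0.10 ± 0.37, SE; adjusted p 0.949, edgeR quasi-likelihood), and the sign turned without ATRA 2 (-0.09) or ethanol 1 (-0.32). There were 4.62 and 3.80 PBX3 reads per PBX2 read with ATRA, against 2.502 and 1.81 with ethanol, which did not overlap (exact permutation p = 0.333, the smallest possible). This ratio was also chosen after the values were seen, and the PBX2 count is uncertain because of its shared stretches. PBX4, known mainly from testis, had 2 and 3 reads with ATRA and 5 and 17 with ethanol. With summed reads set over depth, ethanol exceeded ATRA by a ratio of 4.18, with a 95% exact counting interval of 1.54 to 14.1 that covers counting error only. In a fit that kept every gene with at least 1 count, PBX4 had a log2 fold change of -1.99 ± 1.11 (SE; adjusted p 0.530, edgeR quasi-likelihood).

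PKNOX1, also called PREP1, is a partner of PBX that keeps PBX proteins stable. It had 24.4 and 27.1 CPM with ATRA, against 22.9 and 31.8 CPM with ethanol. The ATRA values lay between the ethanol values, with a log2 fold change of -0.09 ± 0.29 (SE; adjusted p 0.942, edgeR quasi-likelihood) that turned to 0.18 without ethanol 2. PKNOX2 had 0 reads in all 4 libraries, which allows a level of up to 0.0464 CPM over the libraries together (3 reads).

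TGIF1, the repressor of the set, had 18.2 and 20.6 CPM with ATRA, against 5.31 and 14.1 CPM with ethanol. The groups did not overlap, but the ethanol libraries differed more from each other than ethanol 2 did from ATRA. The log2 fold change was 0.99 ± 0.50 (SE; adjusted p 0.409, edgeR quasi-likelihood), with 1.75 and 0.55 within numbers 1 and 2. Without ethanol 1 it was 0.42 (adjusted p 0.840), and without ethanol 2 it was 1.88 (adjusted p 0.0436, in a fit with a single ethanol library that called 5.88% of all genes), within a range of 0.0435 to 0.840 over all alternatives (edgeR quasi-likelihood, DESeq2 or limma-voom). The value thus rested on which ethanol library was used.

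**Figure D3:**
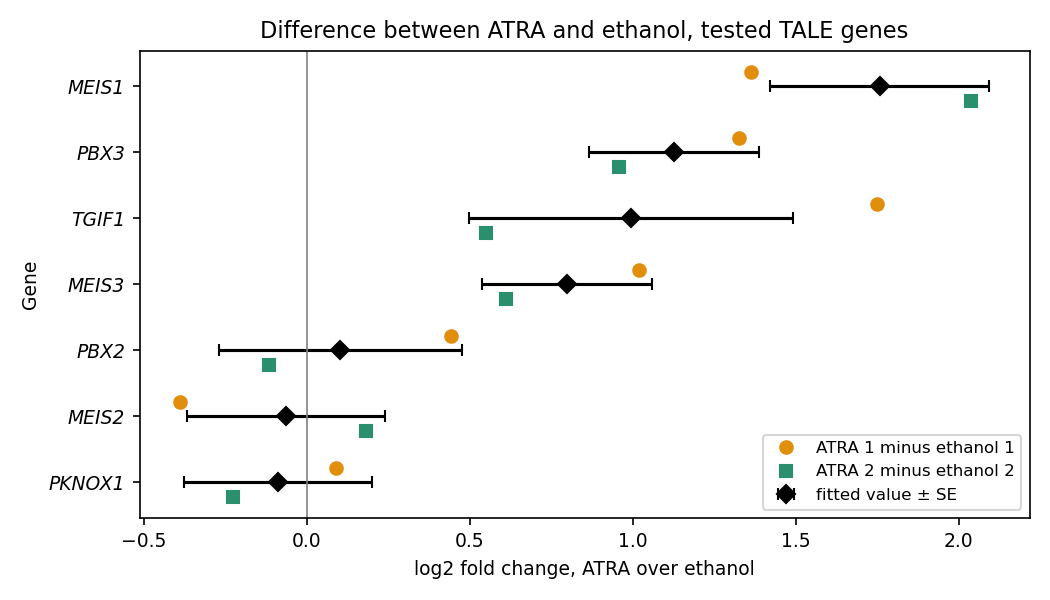
Log2 fold change of ATRA over ethanol for the 7 tested TALE genes, fitted with edgeR (black diamond ± SE), with the differences between libraries numbered 1 (orange) and 2 (green). MEIS1 leads at 1.76, followed by PBX3 at 1.13, TGIF1 at 0.99 and MEIS3 at 0.80, while PBX2, MEIS2 and PKNOX1 lie near 0.

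Levels of different genes were compared per kb, as CPM divided by the merged exon length in GENCODE 29. That length joins the exons of all annotated transcripts of a gene. It may exceed the length of the transcripts made here by a different amount in each gene, so the order is approximate. With ATRA the order was PBX3 (25.4 ± 0.747 CPM per kb), MEIS3 (17.1 ± 0.385), MEIS1 (12.9 ± 5.03), MEIS2 (9.56 ± 3.20), PBX2 (6.36 ± 1.06), PKNOX1 (3.38 ± 0.252), TGIF1 (2.36 ± 0.214) and PBX4 (0.0616 ± 0.0122; SD, n = 2). MEIS1 and MEIS2 overlapped there, and the other neighbours did not. With ethanol the order was PBX3 (11.6 ± 2.43 CPM per kb), MEIS2 (9.99 ± 0.608), MEIS3 (9.83 ± 2.17), PBX2 (5.91 ± 2.52), MEIS1 (3.82 ± 0.259), PKNOX1 (3.59 ± 0.818), TGIF1 (1.18 ± 0.753) and PBX4 (0.240 ± 0.127; SD, n = 2). In ethanol PBX3, MEIS2 and MEIS3 could not be ordered by their libraries, nor could PKNOX1 be ordered against MEIS1 or PBX2.

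The 3 genes whose log2 CPM ran closest to MEIS1 over the 4 libraries, each centred on its mean, were FOXC1 at a Euclidean distance of 0.0921, CMAHP at 0.116 and SYT11 at 0.145. For MEIS2, the member with the highest mean CPM over all 4 libraries though not over the ATRA libraries, they were RABEP1 at 0.0886, FLVCR1 at 0.0894 and C12orf73 at 0.0965. With 4 libraries these distances are a description.

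The start regions of MEIS1 and PBX3 are shown because these 2 had the largest fitted log2 fold changes of the 7 tested members, each as 300 bases of RefSeq sequence (GRCh38.p14) from 250 before the start site to 50 after it, read 5′ to 3′ on the gene's plus strand. Capitals mark a match to TGACAG, the hexamer that MEIS and PKNOX proteins bind, on either strand.
MEIS1, chr2:66434875-66435174: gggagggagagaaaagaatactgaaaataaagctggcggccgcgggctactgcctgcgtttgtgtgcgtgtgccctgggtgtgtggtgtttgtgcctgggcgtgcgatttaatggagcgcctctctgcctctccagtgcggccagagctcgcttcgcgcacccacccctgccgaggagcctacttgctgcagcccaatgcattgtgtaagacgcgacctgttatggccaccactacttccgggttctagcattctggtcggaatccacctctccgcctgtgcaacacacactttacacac
PBX3, chr9:125747933-125748232: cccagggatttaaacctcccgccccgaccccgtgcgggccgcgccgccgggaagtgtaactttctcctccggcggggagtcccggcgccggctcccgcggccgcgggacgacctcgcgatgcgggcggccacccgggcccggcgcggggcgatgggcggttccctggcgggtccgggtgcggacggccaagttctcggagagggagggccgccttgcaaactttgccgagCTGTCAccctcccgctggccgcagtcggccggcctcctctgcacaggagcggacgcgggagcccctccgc

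The PBX3 window held 1 match, on the minus strand, that begins 20 bases before the start site. Over the 16 windows of the 8 members with an entry, TGACAG occurred in 3, of which 2 belong to TGIF1, against 15.8% of 35116 windows in the table. The retinoic acid receptor half-site AGGTCA occurred in 2, both of TGIF1, against 13.8% of all windows. The DR5 element is a direct repeat of this half-site, and PBX and HOX proteins bind the octamer TGATTGAT together. Neither was found in a member's window. The DR5 element occurred in 0.006% of all windows and the octamer in 0.484%, so their absence from 16 windows tells little. Letters were searched on both strands, and TGIF1 has 7 of the 16 windows.

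Of 8 other TALE homeobox genes, the IRX genes, MKX and TGIF2, 3 passed the filter and 0 passed the test, with log2 fold changes from -4.18 to -0.25; TGIF2, at -0.25, had overlapping groups. IRX6, an Iroquois factor, had 0.474 and 3.35 CPM with ATRA, against 36.0 and 34.2 CPM with ethanol. Ethanol cells held it at a steady level that neither ATRA library approached. Its log2 fold change was -4.18 ± 0.80 (SE; adjusted p 0.0838, edgeR quasi-likelihood) with an adjusted p of 1.05e-16 to 0.0913 over all alternatives. It was -3.39 without ATRA 1 and -6.20 without ATRA 2, so its size rested on which ATRA library was used. IRX5 had 0.745 and 1.85 CPM with ATRA, against 5.24 and 7.88 CPM with ethanol (log2 fold change -2.32 ± 0.63, SE; adjusted p 0.154, edgeR quasi-likelihood). DESeq2 called both genes lower. IRX1, IRX2 and IRX4 had 0 reads in every library.

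PBXIP1, which binds PBX proteins and keeps them off DNA, had 47.2 and 43.6 CPM with ATRA, against 14.2 and 14.6 CPM with ethanol. The libraries of each group were nearly equal. Its log2 fold change was 1.66 ± 0.26 (SE; adjusted p 0.0587, edgeR quasi-likelihood), with an adjusted p of 0.000105 to 0.0690 over all alternatives. MYH9, a nonmuscle myosin heavy chain, was at 1.02 ± 0.24 (log2 fold change, SE), and 0 of the 3 listed PBX regulators passed. DESeq2 called 2 of the 3 higher, PBXIP1 and MYH9 (adjusted p 0.000105 and 0.0175), and 7.3% of all genes in either direction. The remaining gene, MYH10, was at -0.35 ± 0.33 (log2 fold change, SE), with overlapping groups.

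Of 9 corepressors and SMAD proteins that TGIF1 works with, 0 passed (median log2 fold change 0.18). DESeq2 called 2 of them higher, and 7.3% of all genes in either direction. SMAD3, which carries TGF-beta signals, had 104 and 86.7 CPM with ATRA, against 17.9 and 26.9 CPM with ethanol (log2 fold change 2.09 ± 0.30, SE; adjusted p 0.0528, edgeR quasi-likelihood). SKIL, a SMAD-binding corepressor, had 304 and 326 CPM with ATRA, against 74.4 and 108 CPM with ethanol (1.79 ± 0.28, SE; adjusted p 0.0617, edgeR quasi-likelihood). Both ATRA libraries lay well above both ethanol libraries for SMAD3 and SKIL, which are named for their small p. Over the 9, that held for 3, against 23.8% of all genes, and 6 overlapped. Log2 fold changes were positive for 6 and negative for 3, down to -0.59 (HDAC1).

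HOX genes, the DNA-binding partners of the family, were tested in 14 of 39 cases. The single call was HOXD10, which rose (log2 fold change 3.44 ± 0.47, SE; adjusted p 0.0477, edgeR quasi-likelihood), a call that ended with library size alone (0.0506) and with limma-voom (0.0636). DESeq2 called 4 HOX genes higher, and 7.3% of all genes in either direction. The fit that kept every gene with a read called 6 HOX genes higher, and 4.88% of its 37299 genes in either direction. It tested more of the 39 than those 14. The 14 had a median log2 fold change of 1.07, beside 0.01 over all genes. That median includes HOXD1 (8 and 8 ethanol reads), HOXD4 (2 and 8) and HOXD13 (15 and 7). These passed the filter only with their ATRA libraries counted, so the filter had a part in the median. The clusters differed. Tested HOXD genes ran from 1.29 (HOXD9) to 3.44 (HOXD10), and tested HOXC genes from -0.72 (HOXC11) to 0.84 (HOXC6). No HOXA or HOXB gene passed the filter. Subunits of the cereblon ligase, CRBN, DDB1, CUL4A, CUL4B and RBX1, were all tested and 0 passed, with a median of -0.08. CUL4A was at -0.23 ± 0.28 and CUL4B at 0.28 ± 0.37 (log2 fold change, SE), with overlapping groups.

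**Figure D4:**
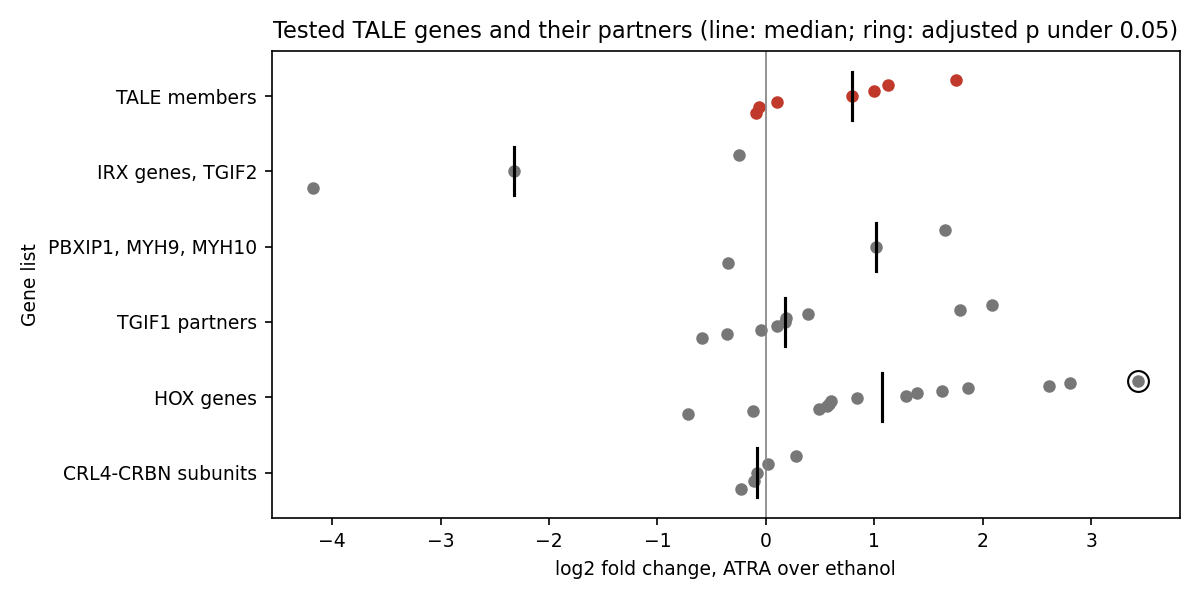
Log2 fold change of ATRA over ethanol, 1 point per tested gene, for the TALE members (red) and 5 lists of related genes (grey), with a line at each median and a ring around genes with an adjusted p under 0.05. The only ring is HOXD10, the TALE members centre on 0.80, and IRX6 lies furthest to the left at -4.18.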

How the data were processed

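RNA-seq libraries of SK-N-BE(2)C cells were made from ribosomal RNA-depleted total RNA with a directional kit, per the labels' protocols. The authors deposited raw counts of reads by gene symbol for 4 libraries. STAR 2.5.2b, featureCounts 1.5.1 and build hg19 are named in the submitters' processing notes; for annotation, strand setting and shared reads, the sources used here give nothing.

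The counts were fitted with edgeR 4.0.16 in R 4.3.3 (filterByExpr with a minimum count of 10, TMM, robust quasi-likelihood F test, treatment as the sole term, 2 residual degrees of freedom, two-sided). Adjustment was by Benjamini-Hochberg across the 18900 genes tested. SE is the log2 fold change over the square root of F. CPM values were computed on TMM-scaled library sizes, and differences within a title number on log2 CPM (prior count 2). DESeq2 1.42.0, limma-voom (limma 3.58.1), other scalings, no filter, the title number as a block and leaving out each library were alternatives. The code was tested on simulated counts.

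Members and lists were chosen with earlier results of these data known. All 9 members are named. Of each list the called genes are named, up to 2 in each direction, or else the 2 with the smallest p and a mean of at least 1 CPM. For the 4 retinoid targets and the antisense and pseudogene symbols, counts or reads are given. Exon lengths, shared stretches and homeobox sequences came from GENCODE 29 (GRCh38) and start regions from RefSeq (GRCh38.p14). The gene models used in counting may differ. No position of the count data was used.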

Additional observations from a re-analysis of the deposited data

How the results depend on the processing

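Direction and the side of the threshold held for MEIS2, PBX2 and PKNOX1 under every alternative that kept all 4 libraries, and the direction of MEIS1, MEIS3, PBX3 and TGIF1 under all 11. With RLE size factors, upper quartile factors or library size alone, 0 members passed. Members called higher numbered 2 under DESeq2, 2 in the unfiltered fit that kept all genes with a read, 1 to 2 without 1 library and 0 with limma-voom; none was called lower in any of them. Over all genes, DESeq2 called 877 higher and 503 lower, limma-voom 43 and 7, that unfiltered fit 1126 and 695, and the fits without 1 library 547 to 838 higher and 231 to 604 lower, against 103 and 29. The cause was not tested. Without 1 library, log2 fold changes ran from -0.46 to 0.23 for MEIS2, -0.32 to 0.64 for PBX2, -0.35 to 0.18 for PKNOX1 and -0.14 to 0.80 for CUL4B, all of which changed sign. In each of these 4 fits, whose arm of a single library is assumed to vary like the other group, MEIS1, IRX6, PBXIP1, SMAD3 and SKIL passed; as the fits called 4.2% to 6.96% of all genes against 0.698%, this is no sign of stability. IRX5 passed without ATRA 2 or ethanol 1.

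The titles share numbers, which the labels do not tie to cultures or batches. Deviations from the group mean of same-numbered libraries correlated at 0.632 across genes. With the title number as a block, 2325 genes were called higher and 1773 lower. Among them 4 members were called higher, MEIS1, PBX3, MEIS3 and TGIF1 (adjusted p 0.000699, 0.00141, 0.00826 and 0.0435, edgeR quasi-likelihood). That fit called 21.7% of all genes. Among the lists it called 7 HOX genes, 2 PBX regulators, 2 TGIF1 partners and the 4 retinoid targets higher. It called 1 TGIF1 partner and 1 other TALE gene, IRX5, lower.

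With 2 libraries per group, calls depend on how the spread is estimated. A p above the threshold does not show that a member did not differ.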
